A study of Mus musculus with 28 samples.

Results

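Open chromatin of reprogramming mouse fibroblasts at day 5 was compared between cells given the stalling mutant Tet2-E and cells given wild-type Tet2 (Tet2-WT). The comparison holds 8 of the series' 28 ATAC-seq libraries, 4 per vector, chosen by their labels. ATAC-seq marks accessible DNA by the places where a transposase inserts adapters, and each library was deposited as its own list of peaks. Overlapping peaks of these 8 lists on chromosomes 1 to 19 and X were merged into 98565 regions. A region counts as called by a library that has a peak overlapping it by 1 bp or more.

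TET enzymes are dioxygenases that oxidise 5-methylcytosine, first to 5-hydroxymethylcytosine and then to 5-formylcytosine and 5-carboxylcytosine. These later products can be cut out by the glycosylase TDG and replaced with unmodified cytosine, while 5-hydroxymethylcytosine can be lost through dilution at replication. A stalling mutant is one that largely stops after the first step, so setting it against the wild-type enzyme asks what the later oxidation products add. In reprogramming, TET activity is known for its part in demethylating enhancers of pluripotency and epithelial genes. Accessibility is a neighbouring readout, since regulatory DNA that loses methylation often also opens.

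All 8 libraries came from Tet2-/- fibroblasts of embryonic day 12.5 embryos on the V6.5 129XBI/6 background, carrying doxycycline-inducible OKSM (Oct4, Klf4, Sox2 and c-Myc) and rtTA. Both groups therefore lacked endogenous Tet2, and both received Tet2 by a pMXs retrovirus. The cells were seeded on mitotically inactivated feeder fibroblasts and kept in medium with LIF, PD0325901 (a MEK inhibitor), CHIR99021 (a GSK3 inhibitor) and 2 µg/mL doxycycline at 5% oxygen. They were sorted on SSEA1-RFP at day 5, SSEA1 being a surface sugar that appears on reprogramming cells. Used for reference were empty pMXs vector libraries of day 5, day 10 libraries of all 3 vectors, sorted in the same way, and untreated fibroblasts (MEF, day 0), for which no sorting is named. Each of these groups also holds 4 libraries. The labels do not say whether replicates were separate cultures, so the spread that p-values rest on may be a technical one. ATAC-seq here averages over the sorted cells, so that fewer cells open at a site and less opening per cell cannot be told apart.

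Over the 8 libraries, the lists held 41580 to 56309 peaks, and 166 to 206 peaks per list lay outside the 20 chromosomes used. Relative depth, inferred from the background that the peak caller expected at a typical position, ran from 0.792 to 1.04 pileup units and overlapped between the vectors. No 2 of the 8 lists were identical. The delivered gene and the labelled cell type were not checked at named loci, because no gene annotation of the files' build, mm9, was used here. All regions are therefore given by position in mm9, counted from 1.

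The regions called in all libraries of one vector were mostly called in all libraries of the other. Such regions numbered 26626 with Tet2-WT and 23633 with Tet2-E, and 20575 (20.9% of the merged regions) were common to both. In all, 57024 regions were called in at least 1 library of each vector. Another 35257 (35.8%) were called in a single library, 19890 of them in a Tet2-WT and 15367 in a Tet2-E library.

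The strength of a region went with how many libraries called it. The authors' peak caller gives each peak a fold, the pileup at its summit over the local background of its own library. The median of that fold was 5.23 for regions in 1 library, 5.78 for regions in 4, 6.43 for regions in 7 and 8.00 for regions in all 8. Median width rose alongside, from 99 bp to 213 bp, 312 bp and 473 bp, as it must in part, since a region is merged from the peaks of all libraries that call it. The classes overlapped in fold, the upper quartile being 7.09 for regions in 7 libraries and the lower quartile 6.88 for regions in all 8.

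**Figure D1:**
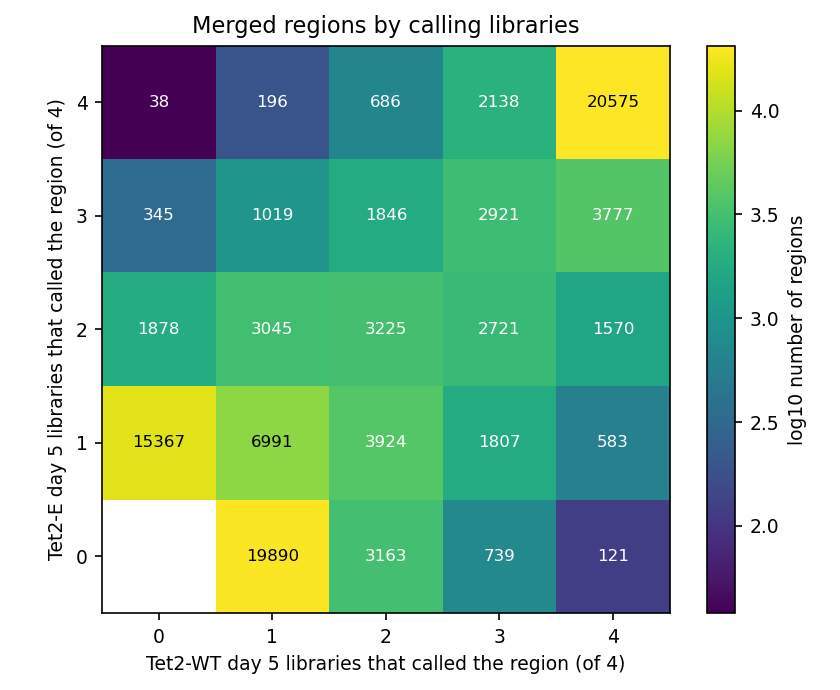
Number of merged regions by how many Tet2-WT day 5 libraries (x axis, of 4) and Tet2-E day 5 libraries (y axis, of 4) called them, with colour on a log10 scale. Most regions sit at a single library or at 8 of 8 (20575), while the corners for 1 vector alone hold 121 (Tet2-WT) and 38 (Tet2-E).

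No region passed the test of a difference between Tet2-E and Tet2-WT. Testing took in the 63308 regions with 2 or more calling libraries, and of these 0 (0%) had an adjusted p under 0.05 (2-sided Fisher's exact test of calling libraries, Benjamini-Hochberg over all tested regions, smallest adjusted p = 1). The strongest difference that 4 against 4 libraries can show is 4 of 4 against 0 of 4, called complete here, with an unadjusted exact p of 0.0286. For any region to pass, more than 36176 of the tested regions would have had to be complete, so the design could not pass a small set of changed regions. At that unadjusted p there were 159 complete regions. Of these, 121 were called with Tet2-WT and not with Tet2-E (0.191% of tested regions), and 38 with Tet2-E and not with Tet2-WT (0.0600%).

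Complete regions thus lay 76.1% on the Tet2-WT side, and weaker differences leaned the same way. More Tet2-WT than Tet2-E libraries called 18405 tested regions (29.1%), more Tet2-E libraries called 11191 (17.7%), and 33712 (53.3%) were called by equal numbers. The size of the lean differed between settings, and what sets it was not tested. When a call needed peaks over 50% of the region's length, 183 complete regions were on the Tet2-WT side and 34 on the Tet2-E side (84.3% Tet2-WT). Lists also differed in length, that of Tet2-E replicate 4 being the shortest at 41580 peaks. That library alone missed 1412 of the 5915 regions called in 7 of 8 libraries, against 413 to 940 for each of the other 7. When every list was held to an equal number of peaks, its strongest 41414, 85 complete regions were on the Tet2-WT side and 54 on the Tet2-E side (61.2% Tet2-WT).

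Leaving out any library leaves 4 against 3, where more regions can be complete. Without Tet2-E replicate 4, 203 were complete with Tet2-WT and 164 with Tet2-E (55.3% Tet2-WT). Without Tet2-E replicates 1, 2 or 3 in turn, the counts were 237 and 118, 348 and 96, and 278 and 118. Without Tet2-WT replicates 1, 2, 3 or 4 they were 321 and 78, 357 and 75, 275 and 96, and 273 and 100. When Tet2-E replicate 4 was left out and the other 7 lists were also held to an equal 47570 peaks, a setting that was chosen once the data were known, 164 regions were complete with Tet2-WT and 178 with Tet2-E (48.0% Tet2-WT). In that setting the Tet2-E side held more.

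The complete regions looked like other regions of intermediate calling. Their median fold was 5.73 on the Tet2-WT side (range 3.99 to 7.94) and 5.56 on the Tet2-E side (4.25 to 7.71). The 3225 regions called in 2 libraries of each vector had a median fold of 5.79. Median widths were 207 bp, 209 bp and 212 bp in the same order. No complete region reached the median fold of the regions called in all 8 libraries, 8.00.

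The 10 complete Tet2-WT regions with the highest median fold were named by a rule, and the numbers that follow are folds by the authors' peak caller, each from its own library. The first, chr13:101404388-101404619, had folds of 8.35, 9.42, 7.53 and 5.96 in Tet2-WT replicates 1 to 4. The second, chr2:112056227-112056406, had 9.33, 6.28, 9.14 and 5.96. The third, chr1:45488862-45489006, had 6.38, 7.32, 8.06 and 7.59. All 3 were narrow, at 232, 180 and 145 bp, and none had a peak in any Tet2-E library at day 5. Next came chr19:37492910-37493069 (median fold 7.43), chr2:172932998-172933172 (7.43), chr4:85756032-85756212 (7.42) and chr2:135388320-135388514 (7.30). The last of the 10 were chr4:101242470-101242835 (7.22), chr13:9099751-9100007 (7.21) and chr7:120577933-120578114 (7.14).

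Libraries that had no part in choosing these 10 regions split over them. The first was called in 2 of 4 Tet2-WT and 0 of 4 Tet2-E libraries at day 10, in 1 of 4 empty vector libraries at day 5 and in 0 of 4 MEF. The second was called in 2 Tet2-WT and 1 Tet2-E library at day 10 and the third in 1 of each. The region chr2:135388320-135388514 was called in 4 of 4 MEF and 3 of 4 empty vector day 5 libraries, and at day 10 in 0 Tet2-WT and 1 Tet2-E library. At chr13:9099751-9100007 and chr4:101242470-101242835 more Tet2-E than Tet2-WT libraries called the region at day 10 (2 against 1 at both). Of the 10 regions, 9 were called in at least 1 empty vector day 5 library, chr2:172932998-172933172 being the exception with 0 of 4. Calls in 0 of 4 of these libraries held for 13.7% of all tested regions. They also held for 13.7% of the regions called in 2 libraries of each vector at day 5. Over the whole lists, they held for 23 of the 121 complete Tet2-WT regions (19.01%) and 3 of the 38 complete Tet2-E regions (7.89%). Whether these shares differ from 13.7% was not tested.

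On the Tet2-E side, the leading complete region was chr14:77408141-77408342, with folds of 7.61, 10.6, 7.81 and 5.29 in Tet2-E replicates 1 to 4. The next, chr8:27553661-27553839, had 7.49, 7.60, 6.14 and 8.03. The third, chr10:115054628-115054775, had 6.52, 5.73, 8.93 and 8.46. No Tet2-WT library at day 5 had a peak in any of them. They were followed by chr6:97240728-97240936 (median fold 6.85), chr12:105678398-105678606 (6.53), chr7:16515358-16515567 (6.49) and chr7:26645483-26645656 (6.46). The remaining 3 were chr11:27164342-27164566 (6.43), chr9:88437693-88437912 (6.39) and chr9:91250570-91250775 (6.35).

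At day 10 the leading Tet2-E region was called in 4 of 4 Tet2-E and 1 of 4 Tet2-WT libraries, and also in 2 of 4 with the empty vector. Both chr8:27553661-27553839 (3 against 2) and chr11:27164342-27164566 (3 against 1) were called in more Tet2-E than Tet2-WT libraries there. Among the other 7, calls at day 10 differed between the vectors by at most 1 library. The region chr12:105678398-105678606 was called in 4 of 4 empty vector libraries at day 5, so that at this time Tet2-WT libraries alone lacked it. When a call needed peaks over 50% of its length, Tet2-E and Tet2-WT differed there by 1 library at day 5. The region chr9:88437693-88437912 was called in 4 of 4 MEF libraries, and with the empty vector at day 5 in 0 of 4.

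**Figure D2:**
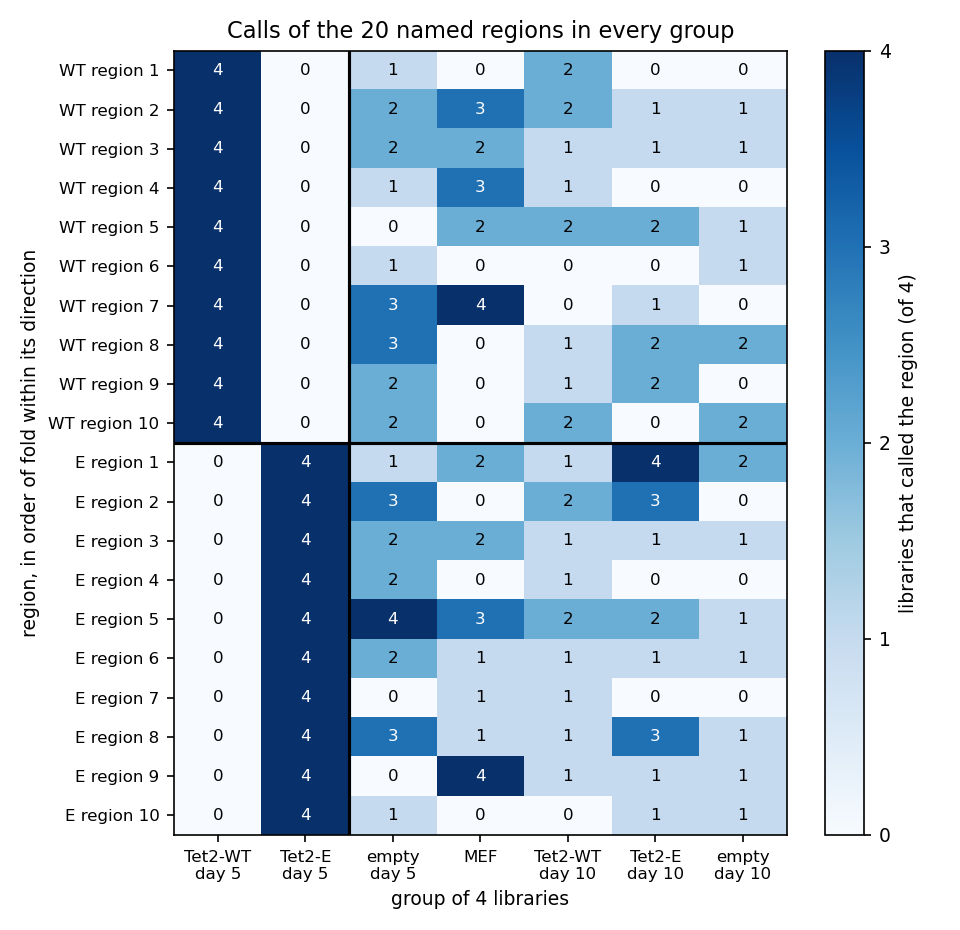
Number of libraries (of 4, colour and digit) that called each of the 20 named complete regions, in the 7 groups of the series; rows are ordered by fold within each direction. The first 2 columns were used to choose the regions, and in the other 5 columns the counts are mixed, with 4 of 4 reached in 4 of 100 cells.

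At day 10, neither list of complete regions was called more often by libraries of its own vector beyond the spread between them. The 121 Tet2-WT regions were called at 33.1%, 37.2%, 20.7% and 10.7% by Tet2-WT day 10 replicates 1 to 4, and at 36.4%, 27.3%, 13.2% and 11.6% by Tet2-E day 10 replicates. The groups overlapped (mean 25.4% ± 12.04 and 22.1% ± 11.8, SD, n = 4 each, exact permutation p = 0.714, adjusted p = 0.844). The 38 Tet2-E regions were called at 44.7%, 26.3%, 15.8% and 15.8% by Tet2-E day 10 replicates 1 to 4, and at 23.7%, 36.8%, 28.9% and 7.89% by Tet2-WT day 10 replicates. These too overlapped (25.7% ± 13.7 and 24.3% ± 12.2, exact permutation p = 0.971, adjusted p = 0.971). Over all tested regions the same 8 libraries called 46.0% ± 9.04 with Tet2-E and 48.1% ± 7.24 with Tet2-WT. All tested regions include the 20575 called in all 8 day 5 libraries, so their level is no like comparison for the lists.

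Region by region, 37 of the 121 Tet2-WT regions were called in more Tet2-WT than Tet2-E libraries at day 10, 29 in more Tet2-E libraries and 55 in equal numbers. That is 30.6% and 24.0%, beside 26.1% and 20.6% of all tested regions. Of the 38 Tet2-E regions, 10 were called in more Tet2-E libraries at day 10 and 11 in more Tet2-WT libraries. No peak of the 8 Tet2-WT and Tet2-E libraries of day 10 overlapped 33 of the 121 (27.3%) or 7 of the 38 (18.4%), against 18.6% of all tested regions.

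Empty vector libraries of day 5 called a smaller share of both lists than of all tested regions (61.3% ± 7.08, SD, n = 4). All tested regions are no like comparison, since they include the 20575 called in all 8 Tet2 libraries of day 5. Of those 20575, 87.7% were called in 4 of 4 empty vector day 5 libraries. Empty vector replicates 1 to 4 called 22.3%, 33.1%, 56.2% and 40.5% of the Tet2-WT regions and 36.8%, 39.5%, 65.8% and 39.5% of the Tet2-E regions. Replicate 3 was the highest for both lists, and it was also the highest over all tested regions (71.2%, against 55.3% to 61.6% for the other 3). Calls in 4 of 4 empty vector day 5 libraries held for 37.1% of all tested regions and 6.95% of the regions called in 2 libraries of each vector. They held for a single Tet2-WT region (0.826% of 121), chrX:136406093-136406299. The same was true of 2 Tet2-E regions (5.26% of 38), chr12:105678398-105678606 and chr5:102142214-102142524. The second of them was also called in 4 of 4 Tet2-E and 3 of 4 Tet2-WT libraries at day 10. These 2 and the chromosome X region were picked after their values were seen.

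**Figure D3:**
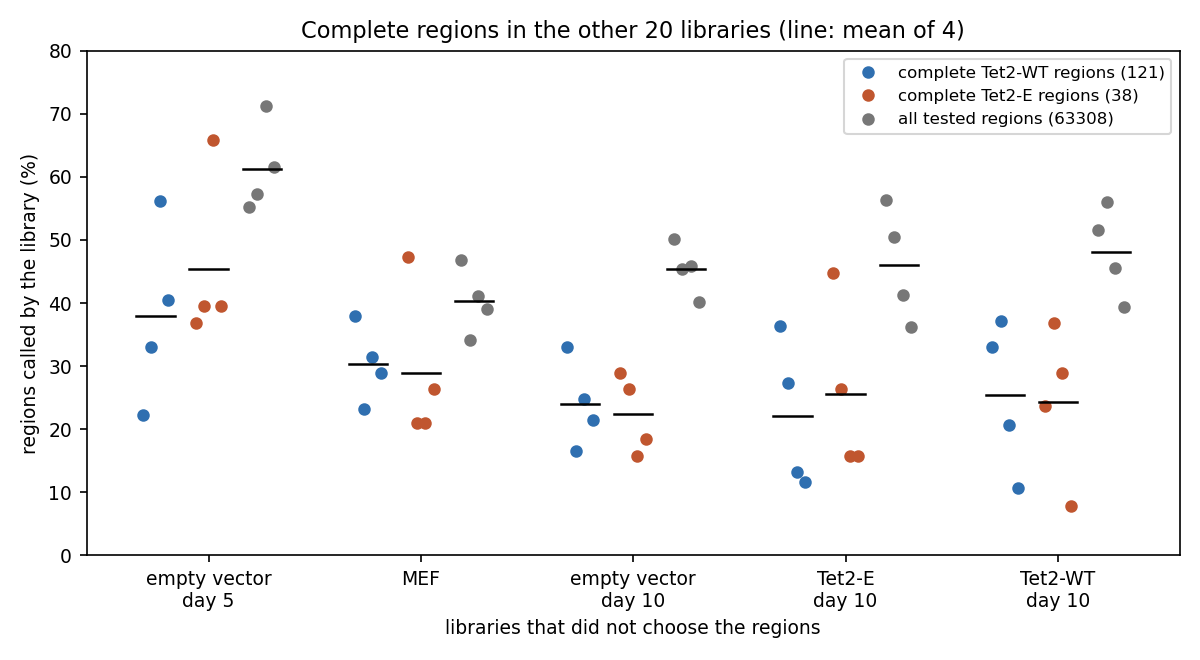
Share of the complete Tet2-WT regions (blue, 121), the complete Tet2-E regions (orange, 38) and all tested regions (grey, 63308) that each of the 20 libraries outside the comparison called, in percent; points are libraries and lines are means of 4. In the Tet2-E and Tet2-WT libraries of day 10 the blue points lie between 10.7% and 37.2% and the orange points between 7.89% and 44.7%, each below the grey point of its own library. All tested regions include the 20575 called in all 8 day 5 libraries, while complete regions were called in 4.

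Sharing across all 8 day 5 libraries was highest for regions called in every MEF library. Regions called in all 4 MEF libraries, thus open already in fibroblasts, made up 17557 of the tested regions, and 62.2% of them were called in all 8 day 5 libraries. Of the 29773 regions called in no MEF library 22.3% were, and of the 15978 called in 1 to 3 MEF libraries 18.8% were. Complete differences were few in every class. Among regions in 4 of 4 MEF libraries there were 18 with Tet2-WT (0.103%) and 4 with Tet2-E (0.0228%), and among regions in 0 of 4 there were 62 (0.208%) and 18 (0.0605%). Regions in 1 to 3 MEF libraries held 41 (0.257%) and 16 (0.100%).

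The 4 fibroblast regions called in all Tet2-E and no Tet2-WT libraries were chr9:88437693-88437912, chrX:96086291-96086519, chr7:146111274-146111512 and chr11:69694408-69694643. Empty vector libraries of day 5 called them in 0, 2, 2 and 1 of 4, in the same order. They were picked for naming after their values were seen. Of the 18 fibroblast regions called in all Tet2-WT and no Tet2-E libraries, chr2:135388320-135388514 had the highest fold (7.30), followed by chr14:66743185-66743478 (6.61) and chr2:117264941-117265209 (6.58). The empty vector at day 5 gave these 3 regions 3, 1 and 3 calling libraries of 4. At day 10 they were called in 0, 1 and 3 Tet2-WT libraries and in 1, 2 and 1 Tet2-E libraries, so that the direction differed among them.

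Closing of fibroblast chromatin was also measured per library, on 27913 regions merged from the MEF lists alone and called in all 4 of them. Tet2-E libraries still called 52.7%, 55.7%, 51.3% and 50.4% of these, and Tet2-WT libraries 53.3%, 52.6%, 60.1% and 57.2%. The Tet2-E mean was lower (52.5% ± 2.31 against 55.8% ± 3.51, SD, n = 4 each), but Tet2-E replicate 2 lay above Tet2-WT replicates 1 and 2. The difference of -3.26 percentage points did not pass (exact permutation p = 0.2, adjusted p = 0.65 over 13 per-library values). Without Tet2-WT replicate 3 it was -1.83 percentage points. With an equal number of peaks it was -1.43 percentage points (exact permutation p = 0.371). In that setting the MEF lists were held to at most the same number, so the fibroblast regions were defined anew. The share of Tet2-E replicate 4, whose own list stayed whole, went from 50.4% to 53.9% there.

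Opening ahead of day 10 was measured on 4018 regions called in all 4 empty vector day 10 libraries and in no MEF library, a set defined without either Tet2 vector. At day 5 Tet2-E libraries called 91.7%, 93.7%, 90.5% and 87.3% of them, and Tet2-WT libraries 93.3%, 92.8%, 90.5% and 94.2%. Libraries of both vectors thus called most of these later regions, with Tet2-E replicate 4 the lowest of the 8. The share called by empty vector libraries of day 5 is not given here, so any part of Tet2 in this was not tested. The means were 90.8% ± 2.69 and 92.7% ± 1.58 (SD, n = 4 each, exact permutation p = 0.314, adjusted p = 0.65). Their difference of -1.88 percentage points was -0.707 without Tet2-E replicate 4 and -0.600 with an equal number of peaks. With an equal number of peaks, the later regions were defined anew from reference lists held to at most the same number. The share of a library's peaks that lay outside every MEF peak was 44.1% ± 2.19 with Tet2-E and 44.8% ± 1.35 with Tet2-WT (exact permutation p = 0.657, adjusted p = 0.844).

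Peak lists were shorter on average with Tet2-E, and the groups overlapped. On the 20 chromosomes Tet2-E libraries held 47942, 52475, 50887 and 41414 peaks, and Tet2-WT libraries 48936, 47570, 55930 and 56121. The difference in means was -3960 peaks (exact permutation p = 0.257, adjusted p = 0.65), and without Tet2-E replicate 4 it was -1705. Length inside peaks was 9.71, 11.5, 9.76 and 9.31 Mb with Tet2-E and 11.5, 10.1, 11.6 and 11.5 Mb with Tet2-WT. Here 3 Tet2-E libraries lay below all 4 Tet2-WT libraries, and Tet2-E replicate 2 did not (difference -1.10 Mb, exact permutation p = 0.114, adjusted p = 0.65). Background pileup was 0.861 ± 0.0562 with Tet2-E and 0.913 ± 0.0875 with Tet2-WT (SD, n = 4 each, exact permutation p = 0.4, adjusted p = 0.65). Its part in the other differences was not tested.

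**Figure D4:**
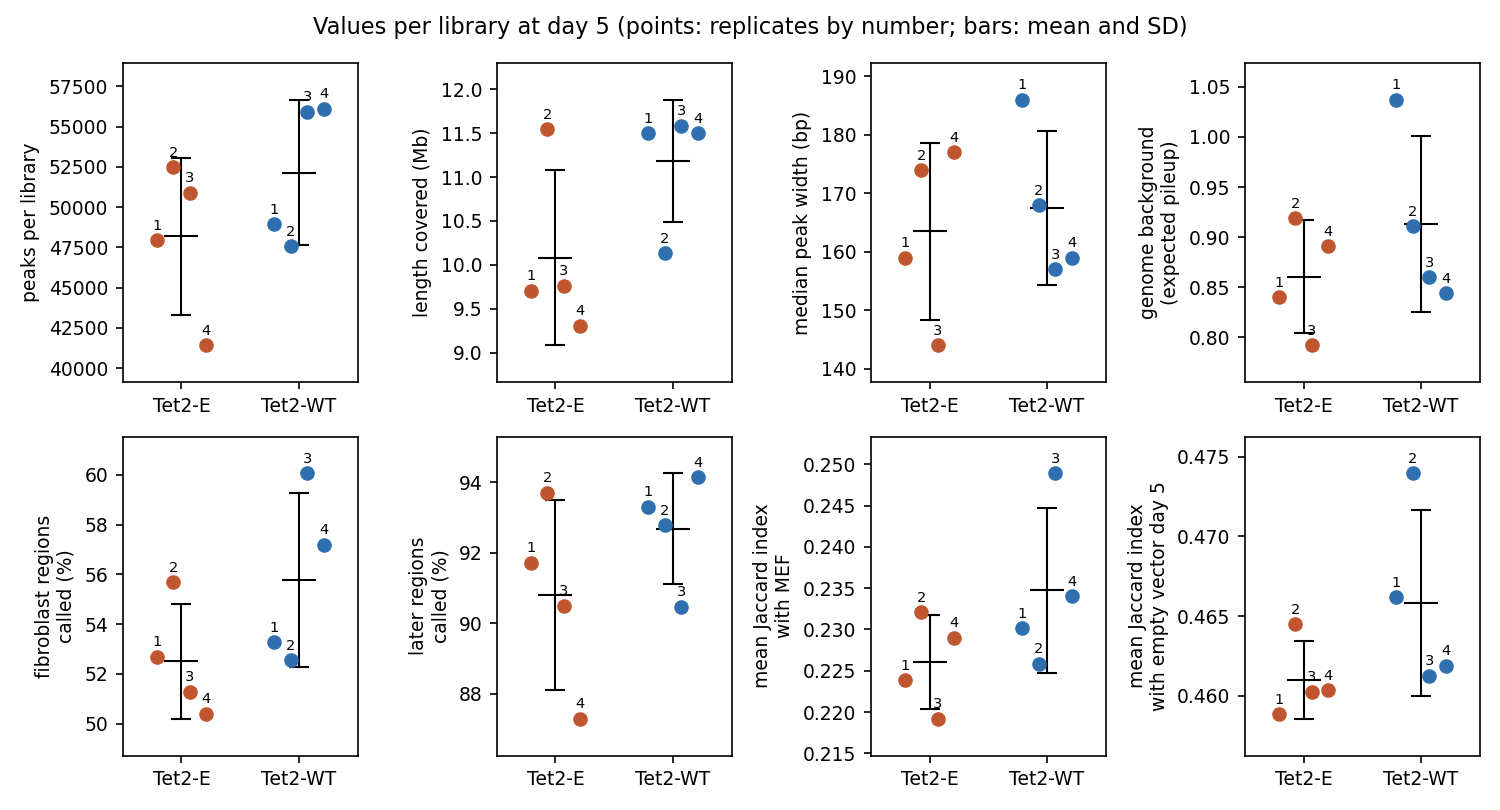
Values of the 4 Tet2-E (orange) and 4 Tet2-WT (blue) day 5 libraries for 8 measures named on the y axes, which do not start at 0; digits are replicate numbers, and bars give mean and SD. The 2 groups overlap in every panel, and Tet2-E replicate 4 has the fewest peaks (41414) and the lowest shares of fibroblast (50.4%) and later (87.3%) regions.

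Whole peak sets were not more alike within a vector than across vectors, on average. The Jaccard index, shared base pairs over base pairs in either set, averaged 0.465 between Tet2-E libraries (range 0.459 to 0.472, 6 pairs), 0.481 between Tet2-WT libraries (0.476 to 0.492, 6 pairs) and 0.474 across vectors (0.459 to 0.490, 16 pairs). Within-vector similarity minus across-vector similarity was -0.000408 (exact permutation over 35 groupings, p = 0.857, adjusted p = 0.929). For each of the 4 Tet2-E libraries the most similar of the other 7 was a Tet2-WT library, replicate 2 for 3 of them and replicate 1 for the fourth. For Tet2-WT replicates 1, 2 and 3 it was another Tet2-WT library, and for replicate 4 it was Tet2-E replicate 2.

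Similarity to reference groups was added after the data were seen. The mean Jaccard index with the 4 empty vector day 5 libraries was 0.459, 0.464, 0.460 and 0.460 for Tet2-E replicates 1 to 4, and 0.466, 0.474, 0.461 and 0.462 for Tet2-WT (exact permutation p = 0.171, adjusted p = 0.65). With an equal number of peaks it was 0.476, 0.481, 0.477 and 0.472 against 0.481, 0.489, 0.485 and 0.487. The empty vector lists were held to at most the same number. In that setting all 4 Tet2-E libraries lay below all 4 Tet2-WT libraries, with means of 0.477 and 0.486 (exact permutation p = 0.0286, which 4 against 4 cannot go below, and adjusted p = 0.314). Over all alternatives run for this index the adjusted p lay between 0.224 and 0.698 (exact permutation). With MEF the mean index was 0.226 ± 0.00569 for Tet2-E and 0.235 ± 0.0100 for Tet2-WT, and with the empty vector at day 10 it was 0.388 ± 0.0125 and 0.377 ± 0.0122 (SD, n = 4 each). Neither passed (exact permutation p = 0.171 and 0.4, adjusted p = 0.65 for both).

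Peak width gave a second readout, added after the data were seen, in the 20575 regions that all 8 libraries called. Here presence cannot differ, but a site more open in one vector would tend to give a wider peak. Widths were compared as log2 of the base pairs covered in each region, after centring each library on its median, which ran from 286 to 335 bp. None of the 20575 regions (0%) passed (limma, smallest adjusted p = 0.512), and 1008 (4.90%) had an unadjusted p under 0.05. Of these 1008, 502 were wider with Tet2-WT and 506 with Tet2-E. Centring takes out any shift shared by the regions of a library, so this split does not compare the vectors. Library medians were 286, 322, 294 and 298 bp with Tet2-E and 335, 305, 321 and 315 bp with Tet2-WT. Without centring, 881 regions were wider with Tet2-WT and 239 with Tet2-E at unadjusted p under 0.05 (limma). With centring, the median size of the difference was 0.15 on the log2 scale. In simulated data on 20575 regions, the centred fit recovered 85.5% of 200 changes of 2 log2 units, 38.0% of changes of 1 and 0% of changes of 0.5. The simulated noise was normal and independent, with each region's own spread, and all changes were towards wider peaks with Tet2-WT. Unchanged regions that passed numbered 20, 4 and 0 in the same order.

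The region with the smallest p was chr19:57397713-57398235, where peaks covered 195, 108, 120 and 97 bp in Tet2-E replicates 1 to 4 and 476, 461, 434 and 342 bp in Tet2-WT. All Tet2-WT widths exceeded all Tet2-E widths, by 1.67 ± 0.25 (SE) on the log2 scale (limma, adjusted p = 0.512). A second such region, chr13:114362248-114362808, measured 112, 132, 89 and 170 bp with Tet2-E and 362, 268, 414 and 348 bp with Tet2-WT. In the other direction, chr16:58088630-58089070 measured 316, 368, 265 and 290 bp with Tet2-E and 109, 136, 83 and 163 bp with Tet2-WT. Likewise, chr3:96239510-96239972 measured 333, 283, 223 and 325 bp against 96, 126, 134 and 145 bp. None of these 4, the 2 with the smallest p in each direction, passed the adjustment (limma, adjusted p = 0.512 for each).

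**Figure D5:**
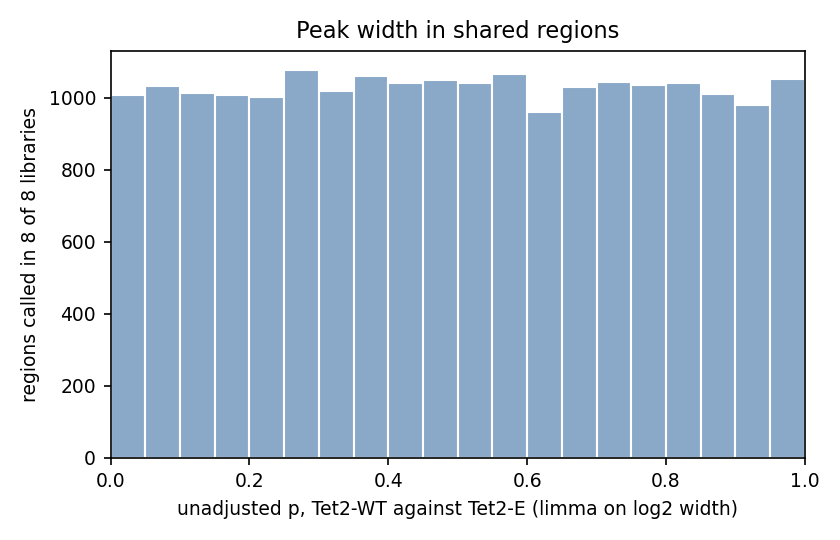
Unadjusted p of the 20575 regions called in all 8 libraries for a difference in log2 peak width between Tet2-WT and Tet2-E (limma), in 20 bins of 0.05. The bins hold 962 to 1077 regions each, and the first, under 0.05, holds 1008.

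Regions that both enzymes shared and the empty vector lacked were also few. Of the 20575 regions called in all 8 Tet2 libraries, 12 were called in none of the 4 empty vector day 5 libraries and 18038 in all 4. When the 12 day 5 libraries were merged together, 12 regions had 8 of 8 Tet2 and 0 of 4 empty vector libraries, and 7 had 0 of 8 and 4 of 4. The 6 regions that MEF libraries also lacked were chr2:16777005-16777371, chr2:75530647-75530935, chr7:137963114-137963486, chr10:93193815-93194178, chr15:73579883-73580078 and chr17:10624764-10625309. Their median folds lay between 5.47 and 6.87.

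At day 10 the Tet2 vectors differed over some of these 6. The region chr2:16777005-16777371 was called in 4 of 4 Tet2-WT, 0 of 4 Tet2-E and 0 of 4 empty vector libraries. At chr7:137963114-137963486 the counts were 3, 0 and 0, and at chr10:93193815-93194178 they were 3, 1 and 1. At chr15:73579883-73580078 they were 0, 1 and 0, and at chr2:75530647-75530935 they were 1, 1 and 2. By contrast chr17:10624764-10625309 was called in 4 of 4 libraries of both Tet2 vectors and in 3 of 4 with the empty vector. Among all 63308 tested regions, 57 were called at day 10 in 4 of 4 Tet2-WT and 0 of 4 Tet2-E libraries, and 32 the other way. More Tet2-WT than Tet2-E libraries called 26.1% of all tested regions at day 10, and more Tet2-E libraries called 20.6%. The counts above describe 6 regions chosen by their day 5 calls, and no test was made on them.

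Complete regions were spread over the genome. Tet2-WT regions lay on all 20 chromosomes, with 1 on chromosome 16 and 13 on chromosome 2, and Tet2-E regions on 15. The share of tested regions that were complete in either direction ran from 0.0932% on chromosome 16 to 0.434% on chromosome 9. Chromosomes 2, 3, 17, 18 and 19 held Tet2-WT regions alone. Neighbouring complete regions of one direction were rare: a single pair of Tet2-WT regions, chr2:49642999-49643285 and chr2:49700788-49700957, lay within 100 kb of each other, 57.5 kb apart. No pair of Tet2-E regions did, the nearest being 1367 kb apart.

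For scale, the strongest regions called in all 8 libraries had folds several times those of any complete region. The first was chr1:104524740-104524932, with folds of 34.2, 30.7, 40.1 and 34.4 in Tet2-E replicates 1 to 4 and 30.3, 36.1, 37.9 and 35.8 in Tet2-WT. The next was chr11:121843643-121843881, and after it came chr5:60433905-60434339 (median fold 34.1), chr6:49186416-49186640 (33.6) and chr5:152537085-152537304 (30.1). These 5 were narrow, at 193 to 435 bp against a median of 473 bp for regions in all 8 libraries, and all 28 libraries of the series called them. Whether regions prone to artefacts were removed from the lists is not given in the sources used here.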

How the data were processed

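The authors deposited 1 MACS2 peak list per library. Per the submitters' processing notes, tools were Bowtie2, SAMtools, bedtools and MACS2, with mm9 as build. Not given in the sources used here are their versions and settings, and whether reads were filtered or shifted to the cut site. Each deposited peak has a fold ratio over background, -log10 p and -log10 q values (lowest -log10 q 2.00) and a score of 10 times -log10 q. Read depth is not in the lists, so relative depth was the commonest background that fold and p imply (whole-number pileups for 100% of peaks, tolerance 0.002 in -log10 p). It depends on an assumed fragment length and is not a read count.

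Calls were compared with Fisher's exact test over all regions in at least 2 libraries, per-library values with 2-sided exact permutation tests (smallest p 0.0286) adjusted over 13 values, and log2 widths genome-wide with limma 3.58.1 in R 4.3.3. Other steps ran in Python 3.11.15 with SciPy 1.17.1. Tests were checked on simulated data. Alternatives changed the overlap, q threshold, number of peaks, region set, filter, replicate block or libraries. An equal number of peaks also capped the lists of reference libraries. Samples were grouped by labels. Named regions were the 10 complete regions per direction and the 5 shared regions with the highest median fold, and each region open with both Tet2 vectors but not in the empty vector at day 5 or in MEF. The regions, lists and tests were chosen with earlier results of these data known. Lists of marker genes were not applied, since the gene table at hand is of another build. Same-numbered libraries were not treated as pairs.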

Additional observations from a re-analysis of the deposited data

Results flagged for a closer look

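Of 35 groups of 4 values examined, 3 held a value set far apart from the other 3, where chance gives about 1 in 20. Tet2-WT replicate 2 covered 10.1 Mb, against 11.5 to 11.6 Mb in the other Tet2-WT libraries. The same library had a mean Jaccard index of 0.395 with the empty vector at day 10, against 0.369 to 0.372 in the other 3. Empty vector day 5 replicate 3 called 65.8% of the 38 complete Tet2-E regions, against 36.8% to 39.5% in the other 3.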

How the results depend on the processing

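The count of regions passing stayed at 0 under every alternative run for it. The smallest p that could arise was 0.0286 (Fisher's exact test), or 0.125 with the replicate block (exact test). A small set of changed regions could therefore pass in no setting, and the count says nothing of stability. When a call needed peaks over 50% of the region's length, 183 regions were complete with Tet2-WT and 34 with Tet2-E. Leaving out single libraries gave 203 to 357 complete Tet2-WT and 75 to 164 complete Tet2-E regions, and an equal number of peaks without Tet2-E replicate 4 gave 178 with Tet2-E. Of the 20 named regions, 12 stayed complete with the 50% rule, 14 with -log10 q of at least 5, 17 with an equal number of peaks, and all 20 with summit windows of 100 bp to each side or with regions of all 28 libraries. The width fit passed 0 regions in each of its 12 alternatives. Without centring, 881 regions were wider with Tet2-WT and 239 with Tet2-E at unadjusted p under 0.05 (limma), beside 502 and 506.

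None of the 137 alternative values of the 13 per-library differences passed (exact permutation, lowest adjusted p = 0.224). With 4 against 4 libraries, 8 of the 13 would have to reach the smallest p for any to pass, so this says little of stability. Differences, Tet2-E minus Tet2-WT, changed sign for the share of peaks outside MEF peaks with an equal number of peaks (0.610 percentage points). The MEF lists were cut there too. Tet2-E replicate 4, whose own list stayed whole, went from 41.1% to 46.3% for that share. Without single libraries that share ranged from -1.41 to 0.316 percentage points, median width from -8.50 to 2.50 bp and the Jaccard difference from -0.00406 to 0.00584. The day 10 difference ranged from -8.20 to 0.620 percentage points for the complete Tet2-WT regions and from -5.04 to 5.48 for the complete Tet2-E regions. For the values that kept their sign, the ranges without single libraries were -5483 to -1705 peaks, -1.59 to -0.842 Mb covered and -0.0755 to -0.0112 in background pileup. They were -4.33 to -1.83 percentage points for fibroblast regions and -2.85 to -0.707 for later regions. Similarity ranged from -0.00635 to -0.00212 for the empty vector at day 5, from -0.0117 to -0.00398 for MEF and from 0.00760 to 0.0168 for the empty vector at day 10. With an equal number of peaks the last was 0.00189, length covered differed by -0.596 Mb and median width by -14 bp. The causes were not tested.

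With the replicate number as a block, the smallest exact p of 4 pairs is 0.125, so 0 complete regions had an unadjusted p under 0.05 in either direction. Deviations of same-numbered libraries correlated by -0.0113 to 0.0481 in calls and by 0.0117 to 0.0800 in widths, and not every library correlated best with its own number. The block was not defined for the Jaccard difference and was not run there. Lists of peaks without read counts limit the comparison to presence and width.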
